A study of Tursiops truncatus with 17 samples.

Results

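ACAP1 and 8 related genes for Arf GTPase-activating proteins (ACAP2, ACAP3, ASAP1, ASAP2, ASAP3, ARAP1, ARAP2 and ARAP3) were followed in dolphin cerebral cortex. The members were found by symbol, each matched 1 row, and they are 9 of the 21265 genes in the files. ACAP1 was chosen because of its difference between the seasons of collection in these same libraries, so its season values are given as a description with no test. The other 8 were chosen as relatives of ACAP1 by name. The libraries came from 17 bottlenose dolphins (Tursiops truncatus), all given as WT, of which 9 were sampled in a bloom season and 8 in a non-bloom season. Each dolphin gave 1 library of messenger RNA from archived frozen necropsy tissue, and dolphins are numbered within season in the order of deposition. The series title places the animals in an estuary, and no source used here gives age, sex, toxin exposure, date or sequencing batch, so season cannot be told apart from a batch that went with it.

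Arf proteins are small GTPases that sit on membranes and, when bound to GTP, recruit vesicle coats and lipid enzymes. Arf GTPase-activating proteins make the Arf hydrolyse its GTP and so end a round of signalling, while guanine nucleotide exchange factors start one. The 9 members share a zinc-finger catalytic domain next to a pleckstrin homology domain and ankyrin repeats. The ACAP and ASAP proteins also carry a BAR domain that senses membrane curvature, and the ASAP proteins add a region rich in proline. In neurons of rat and mouse, Arf6 and its regulators act in endosome recycling, neurite growth and dendritic spines.

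The deposited values are counts per depth in CPM after TMM scaling (trimmed mean of M values), and they are not divided by gene length, so levels are compared between libraries and not between genes. Recovered totals ran from 7680050 to 12572653 reads in bloom libraries and from 12346713 to 15635292 reads in non-bloom libraries. Bloom 9, bloom 5 and bloom 6 had the most mitochondrial reads, 77.2%, 57.0% and 33.5% of their totals, against at most 22.1% in any non-bloom library. Of 12 pan-neuronal markers 11 were in the files, and their summed value ran from 2221 to 10922 in bloom and from 8397 to 14771 in non-bloom libraries. In bulk tissue, fewer cells of a type and less RNA per cell cannot be told apart. Of 13548 genes tested, 1241 differed between the seasons at an adjusted p under 0.05, or 9.16%, with 4.47% higher and 4.69% lower in bloom cortex (limma, Benjamini-Hochberg), and the median log2 difference over all genes was -0.0034.

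ACAP1 encodes a protein that binds cargo such as the transferrin receptor and integrin beta 1 on recycling endosomes. ACAP1 ran from 7.92 through a median of 10.8 to 15.8 TMM-scaled CPM in the 9 bloom libraries, against 3.99, 4.90 and 5.93 as the lowest, median and highest of the 8 non-bloom libraries. All 9 bloom libraries lay above all 8 non-bloom libraries, a separation that was found in 0.657% of the 13548 genes tested (0.502% with bloom higher). Bloom 6 was the highest and bloom 4 the lowest of the bloom libraries. The means were 11.4 ± 2.28 in bloom and 4.91 ± 0.601 in non-bloom cortex (SD, n = 9 and 8), a ratio of 2.33, and the difference was 1.06 on the log2(value + 1) scale, where changes of low genes come out too small. These values chose the gene and are not evidence for it.

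**Figure D1:**
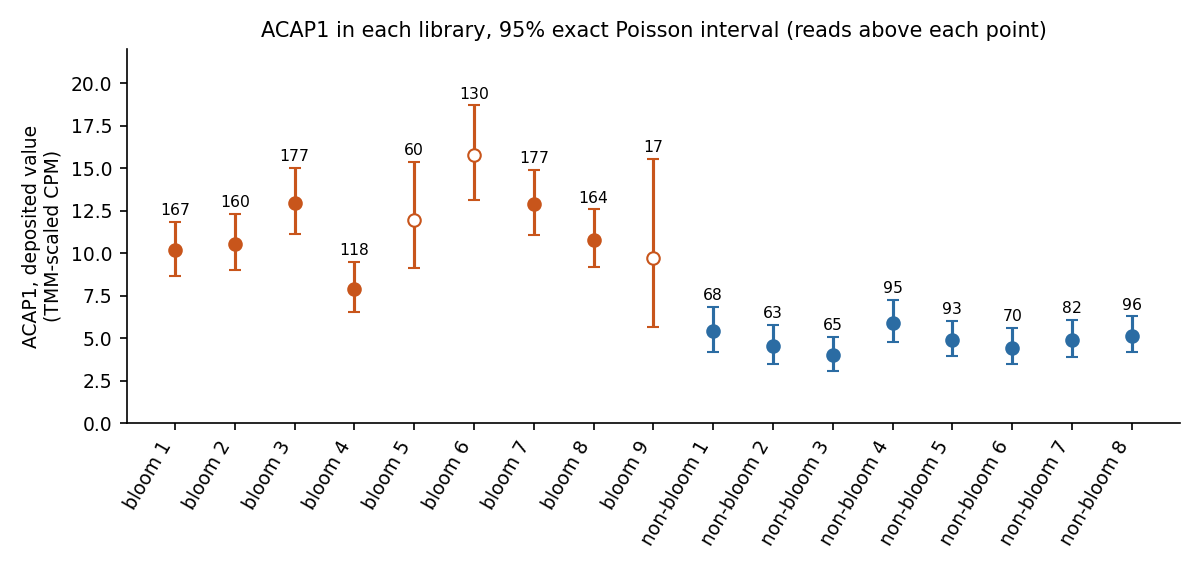
ACAP1 in each of the 17 libraries in TMM-scaled CPM, with 95% exact Poisson intervals for counting error and the number of recovered reads above each point; open circles are bloom 5, 6 and 9. The 9 bloom libraries sit between 7.92 and 15.8 and the 8 non-bloom libraries between 3.99 and 5.93, and the interval of bloom 9 rests on 17 reads.

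The ACAP1 signal rested on few reads. Libraries held between 17 and 177 reads of the gene, the 17 in bloom 9, whose 95% exact Poisson interval ran from 5.66 to 15.6 TMM-scaled CPM. The interval of the lowest bloom library, bloom 4, ran from 6.56 to 9.49, and that of the highest non-bloom library, non-bloom 4, from 4.79 to 7.24, so these neighbours in the order overlap within counting error. The intervals cover counting error only, since the libraries were copied by PCR. Without bloom 5, 6 and 9 the ACAP1 difference was 1.00 on the log2 scale, and over the 17 fits that left out 1 library it lay between 1.00 and 1.11.

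ACAP1 lies on GeneScaffold_2224 from 216594 to 227325 as the files give it, in a genome build that no source used here names, and no annotated gene overlaps it. KCTD11, which encodes an adaptor of a ubiquitin ligase, starts 1613 bases beyond its end. KCTD11 averaged 5.48 ± 4.93 TMM-scaled CPM in bloom and 3.15 ± 0.654 in non-bloom cortex (SD, n = 9 and 8), with a log2 difference of 0.44 (SE 0.27, adjusted p = 0.237, limma). The unnamed protein-coding gene ENSTTRG00000009786, which ends 5230 bases before ACAP1, averaged 99.3 ± 23.0 in bloom and 103 ± 12.1 in non-bloom cortex (log2 difference -0.086, SE 0.15, adjusted p = 0.688, limma). Whether the authors' counting used strand is not given, so reads from an antisense transcript could not be separated.

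White blood cell markers were looked at beside ACAP1, and a part of such cells in its difference was not tested. None of the few that could be tested passed as higher. Of all genes tested, limma called 4.47% higher and 4.69% lower in bloom cortex. Of 16 lymphocyte markers 15 were in the files and 3 could be tested, and CD3G fell in bloom cortex (log2 difference -1.18, SE 0.34, adjusted p = 0.0439, limma), a call that edgeR did not make (adjusted p = 0.079). The summed lymphocyte value ran from 7.76 to 14.6 in bloom and from 11.0 to 19.3 TMM-scaled CPM in non-bloom libraries, almost all of it CD3G, ZAP70 and LTB. Of the other T and B cell markers, CD3E, CD2 and MS4A1 were near 0. CD3E averaged 0.0383 in bloom and 0.0534 in non-bloom cortex, and CD2 averaged 0.0603 in bloom and 0.0357 in non-bloom cortex. MS4A1 averaged 0.0147 in bloom and 0.0149 in non-bloom cortex. Of 6 markers shared by white blood cells, ARHGDIB fell (log2 difference -0.58, SE 0.18, adjusted p = 0.0496, limma) and none rose among the 4 tested. For these 4 edgeR called 1 lower and DESeq2 2, and DESeq2 called 1 of the 3 lymphocyte markers lower. The shares of all genes lower were 2.55% by edgeR and 9.04% by DESeq2. The summed value of the 6 ran from 69.7 to 295 in bloom and from 135 to 252 TMM-scaled CPM in non-bloom libraries. Bloom 9 held the highest sum.

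ACAP2 and ACAP3, the closest relatives by name, did not pass the test. ACAP2, an Arf6 regulator that also binds Rab35, had 12.6, 17.7 and 25.7 TMM-scaled CPM as lowest, median and highest in bloom libraries, against 14.5, 19.98 and 27.5 in non-bloom libraries. The groups overlapped across nearly the whole range, and the log2 difference was -0.16 (SE 0.16, 95% interval -0.50 to 0.18, adjusted p = 0.488, limma). ACAP3, which is needed for neurite outgrowth in cultured mouse neurons, had 38.2, 77.6 and 96.5 in bloom libraries, against 67.5, 84.8 and 101 in non-bloom libraries. Only bloom 5, bloom 6 and bloom 9 lay below the non-bloom range of ACAP3. Its log2 difference was -0.34 (SE 0.18, 95% interval -0.71 to 0.026, adjusted p = 0.167, limma) with all libraries and -0.051 (95% interval -0.26 to 0.16, adjusted p = 0.8002) without those 3.

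Within a library, where scaling cancels, ACAP1 stood at 0.389 to 0.890 of the ACAP2 value in bloom cortex, against 0.145 to 0.372 in non-bloom cortex. Set against ACAP3, ACAP1 stood at 0.102 to 0.386 in bloom and at 0.0453 to 0.0720 in non-bloom libraries. Neither ratio overlapped between the seasons, and since the choice of ACAP1 fixes much of this, no test was made.

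**Figure D2:**
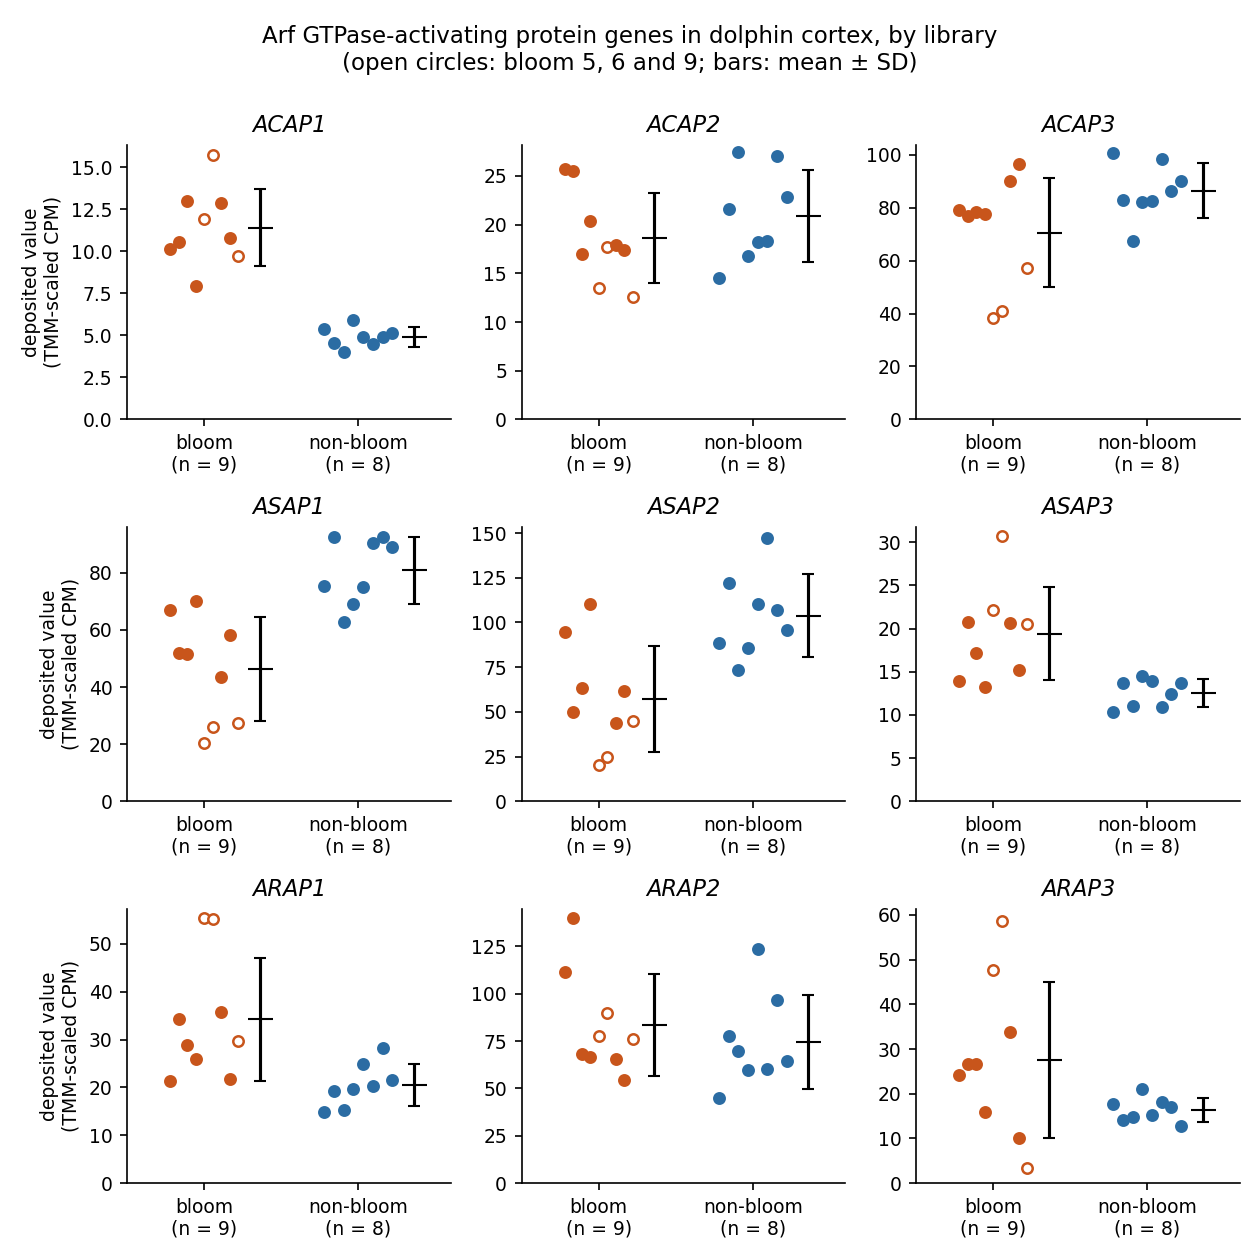
Values of the 9 genes in TMM-scaled CPM by library, bloom left and non-bloom right, with mean and SD beside the points; open circles are bloom 5, 6 and 9. ACAP1 does not overlap between seasons, ASAP1 and ASAP2 are lower and ASAP3 and ARAP1 higher in bloom libraries, and ACAP2 and ARAP2 overlap widely.

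Of the 8 relatives 4 passed the test, 2 lower and 2 higher in bloom cortex, beside 9.16% of all genes tested. On the recovered reads edgeR called 3 of the 8, ASAP1, ASAP3 and ARAP1, beside 8.63% of all genes (6.07% higher and 2.55% lower in bloom cortex). DESeq2 on the same reads called 4, these 3 and ASAP2, beside 23.4% of all genes (14.4% higher and 9.04% lower). Since the members were proposed with results of these libraries known, the share is a description. The change split the ASAP subfamily. ASAP1, a regulator of focal adhesions and podosomes that binds SRC and the focal adhesion kinase, fell in bloom cortex, and so did ASAP2, which binds the related kinase PTK2B, while ASAP3 rose. ARAP1, which acts on trafficking of the epidermal growth factor receptor, also rose.

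ASAP1 had 20.5, 51.5 and 70.0 TMM-scaled CPM as lowest, median and highest in bloom libraries, against 62.7, 82.2 and 92.6 in non-bloom libraries. Of the bloom libraries 7 lay below every non-bloom library, and bloom 1 and bloom 4 lay within the non-bloom range. The means were 46.3 ± 18.2 in bloom and 80.9 ± 11.7 in non-bloom cortex (SD, n = 9 and 8), a log2 difference of -0.89 (SE 0.22, 95% interval -1.36 to -0.43, adjusted p = 0.0321, limma; edgeR adjusted p = 0.0355).

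ASAP2 had 20.3, 49.8 and 110 TMM-scaled CPM in bloom libraries, against 73.5, 102 and 147 in non-bloom libraries. Again 7 bloom libraries lay below every non-bloom library, with bloom 1 and bloom 4 inside its range. The means were 57.0 ± 29.7 in bloom and 104 ± 23.4 in non-bloom cortex (SD, n = 9 and 8), a log2 difference of -0.9998 (SE 0.28, 95% interval -1.58 to -0.42, adjusted p = 0.0397, limma). On the recovered reads edgeR gave it an adjusted p of 0.0528 and so did not call it.

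ASAP3, which has been tied to migration of human cancer cells, had 13.2, 20.6 and 30.8 TMM-scaled CPM in bloom libraries, against 10.3, 13.0 and 14.5 in non-bloom libraries. Here 7 bloom libraries lay above every non-bloom library, and the other 2, bloom 1 and bloom 4, were above the non-bloom median. The means were 19.4 ± 5.38 in bloom and 12.5 ± 1.62 in non-bloom cortex (SD, n = 9 and 8), a log2 difference of 0.56 (SE 0.15, 95% interval 0.24 to 0.88, adjusted p = 0.0397, limma; edgeR adjusted p = 0.0354).

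Ratios within a library were chosen after the season differences were seen. They give the same differences in another form, so no p is given for them. The ratio of ASAP3 to ASAP1 ran from 0.189 through 0.3997 to 1.19 in bloom libraries, against 0.120, 0.151 and 0.209 in non-bloom libraries. Of the bloom libraries 7 lay above every non-bloom library. The ratio of ASAP3 to ASAP2 ran from 0.120 through 0.418 to 1.25 in bloom libraries, against 0.0740, 0.122 and 0.169 in non-bloom libraries, again with 7 bloom libraries above the non-bloom range. That of ASAP1 to ASAP2 ran from 0.608 through 0.950 to 1.05 in bloom libraries, against 0.615, 0.831 and 0.926 in non-bloom libraries.

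ARAP1 had 21.4, 29.7 and 55.3 TMM-scaled CPM as lowest, median and highest in bloom libraries, against 14.9, 20.04 and 28.2 in non-bloom libraries. Of the bloom libraries 6 lay above every non-bloom library and all 9 above the non-bloom median, with bloom 5 and bloom 6 the highest. The means were 34.3 ± 12.9 in bloom and 20.5 ± 4.46 in non-bloom cortex (SD, n = 9 and 8), a log2 difference of 0.66 (SE 0.20, 95% interval 0.25 to 1.07, adjusted p = 0.0456, limma; edgeR adjusted p = 0.0430).

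ARAP2, which acts on Arf6 at focal adhesions, had 54.7, 76.0 and 140 TMM-scaled CPM in bloom libraries, against 44.8, 67.1 and 124 in non-bloom libraries. These ranges nearly coincided, and the log2 difference was 0.16 (SE 0.20, 95% interval -0.26 to 0.58, adjusted p = 0.570, limma). ARAP3, an effector of phosphoinositide 3-kinase that takes part in the sprouting of vessels in mice, had 3.43, 26.6 and 58.6 in bloom libraries, against 12.9, 16.2 and 21.0 in non-bloom libraries. Its bloom values lay on both sides of the non-bloom range, 6 above it and 2 below it, with bloom 6 and bloom 5 at the top and bloom 9 at the bottom. Bloom 9 held 6 reads of ARAP3, with a 95% exact Poisson interval of 1.26 to 7.46 TMM-scaled CPM, so its low place is outside counting error. The log2 difference of ARAP3 was 0.40 (SE 0.38, 95% interval -0.39 to 1.19, adjusted p = 0.446, limma), and 0.70 without bloom 9 (adjusted p = 0.0820).

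**Figure D3:**
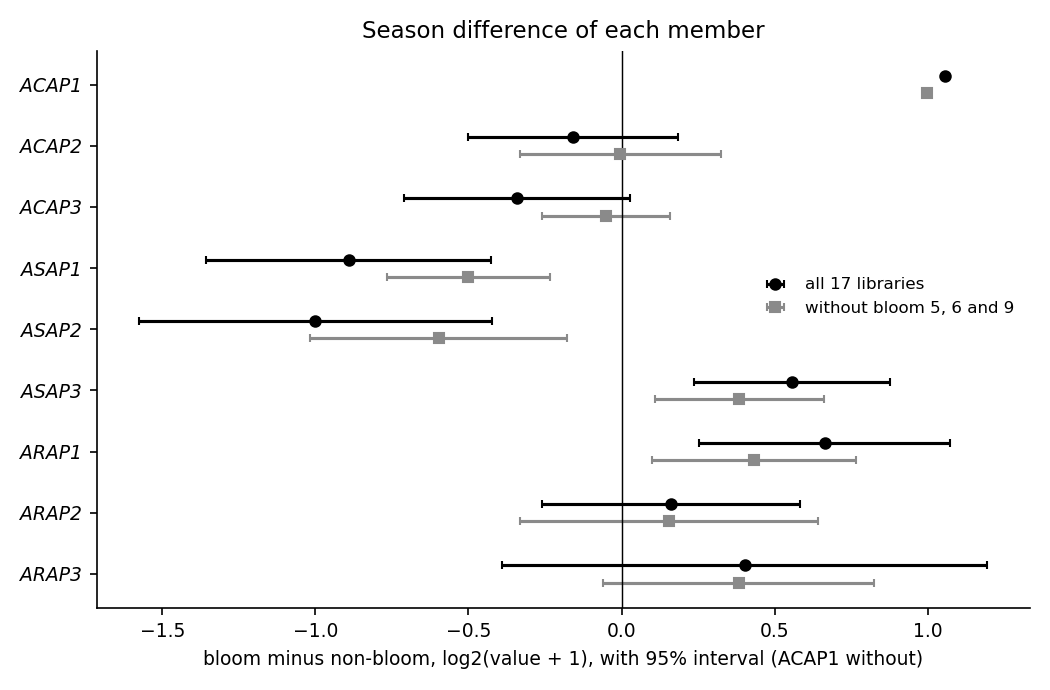
Bloom minus non-bloom difference of each gene on the log2(value + 1) scale with its 95% interval from limma, with all 17 libraries (black circles) and without bloom 5, 6 and 9 (grey squares); ACAP1 is drawn without an interval because it was chosen from this difference. ASAP1 moves from -0.89 to -0.50 and ARAP1 from 0.66 to 0.43 when the 3 libraries are left out, while ACAP1 moves from 1.06 to 1.00.

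The 4 calls were close to the threshold, and each was lost in several of the fits that left out 1 library. That of ASAP1 was lost without bloom 2, 6 or 7 or non-bloom 1, 2, 6, 7 or 8, with adjusted p up to 0.0702 and a log2 difference between -0.98 and -0.76 over the 17 fits that left out 1 library. ASAP2 was lost without the same libraries and without bloom 5 or non-bloom 5 (adjusted p up to 0.0830, log2 difference -1.14 to -0.84). ASAP3 was lost without these and non-bloom 3 (adjusted p up to 0.0811, log2 difference 0.47 to 0.62), and ARAP1 without these and bloom 3 or non-bloom 4 (adjusted p up to 0.0884, log2 difference 0.57 to 0.74). The p-values are adjusted over all genes, and in the same fits between 61 and 2895 genes passed over the whole table. Without bloom 5, 6 and 9 together ASAP1 passed (log2 difference -0.50, adjusted p = 0.0476, beside 2.34% of all genes, 1.68% higher and 0.659% lower) and ASAP2, ASAP3 and ARAP1 did not, at -0.60, 0.38 and 0.43 (adjusted p = 0.101, 0.106 and 0.128, limma).

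Spread among dolphins differed between the seasons for several members. The coefficient of variation was 39.3% in bloom and 14.4% in non-bloom cortex for ASAP1, 29.2% and 12.1% for ACAP3, and 63.6% and 15.9% for ARAP3. It was 52.0% in bloom and 22.5% in non-bloom cortex for ASAP2, 27.8% and 12.9% for ASAP3, and 37.5% and 21.8% for ARAP1. For ACAP1 it was 19.9% in bloom and 12.2% in non-bloom cortex, and for ACAP2 and ARAP2 it was closer, 24.7% in bloom against 22.7% in non-bloom cortex and 32.2% against 33.4%. The difference in spread was not tested, and no spread over all genes is given beside it, so it is not a trait of these members.

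Among the 9 bloom dolphins several members went with the pan-neuronal marker level, the mean log2(value + 1) of 11 genes such as SYT1, SNAP25 and MAP2. This level ran from 6.98 in bloom 5 and 7.60 in bloom 6 to 9.47 in bloom 4, against 9.02 to 9.89 in the non-bloom libraries. Each member was related to it and to the log2 ratio of mitochondrial to other reads within each season, which the choice of members did not use. That made 36 relations, tested by exact permutation over all pairings. Such relations were common in the whole table. In bloom cortex 33.7% of the 13548 genes had an unadjusted exact permutation p under 0.05 with the neuronal level and 39.1% with the mitochondrial ratio, and 5 and 2 of the 9 members did. In non-bloom cortex these shares were 14.1% and 16.1%, and 1 and 2 of the 9 members were under 0.05. Adjusted over the 36 relations 7 passed, and adjusted over those of all genes 4 passed: ASAP1, ASAP2 and ARAP1 with the neuronal level in bloom cortex, and ARAP1 with the mitochondrial ratio in non-bloom cortex. In the sentences that follow, adjusted p is over the 36 unless stated. The points of a relation share their library, its scaling and its tissue piece.

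ASAP2 followed the neuronal level in bloom cortex, with Pearson r = 0.95 (exact permutation, adjusted p = 0.00288, and 0.0199 over all genes) and a Spearman coefficient of 0.93 (adjusted p = 0.0135, n = 9 dolphins). It was still r = 0.93 (exact permutation, adjusted p = 0.0440) without bloom 5 and bloom 6, the farthest from the median. ASAP3 ran the other way, with r = -0.79 (exact permutation, adjusted p = 0.0498, and 0.0858 over all genes) and a Spearman coefficient of -0.95 (adjusted p = 0.0127), and r = -0.90 (adjusted p = 0.0333) without the same libraries.

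ASAP1 had r = 0.89 (exact permutation, adjusted p = 0.00521, and 0.0242 over all genes) and a Spearman coefficient of 0.87 (adjusted p = 0.0274) with the neuronal level, and ARAP1 had r = -0.90 (adjusted p = 0.0211, and 0.0460 over all genes) and a Spearman coefficient of -0.87 (adjusted p = 0.0274). Without bloom 5 and bloom 6 these became r = 0.73 and -0.59 (exact permutation, adjusted p = 0.183 and 0.405) and no longer passed. ACAP3 had r = 0.88 (exact permutation, adjusted p = 0.0398, and 0.0726 over all genes) and a Spearman coefficient of 0.68 (adjusted p = 0.151), and r = 0.27 without them, so its relation rests on those libraries. ACAP1 had r = -0.57 in bloom cortex (exact permutation, adjusted p = 0.256; Spearman coefficient -0.45, adjusted p = 0.435) and r = -0.14 in non-bloom cortex (adjusted p = 0.8001; Spearman coefficient -0.071, adjusted p = 0.907).

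**Figure D4:**
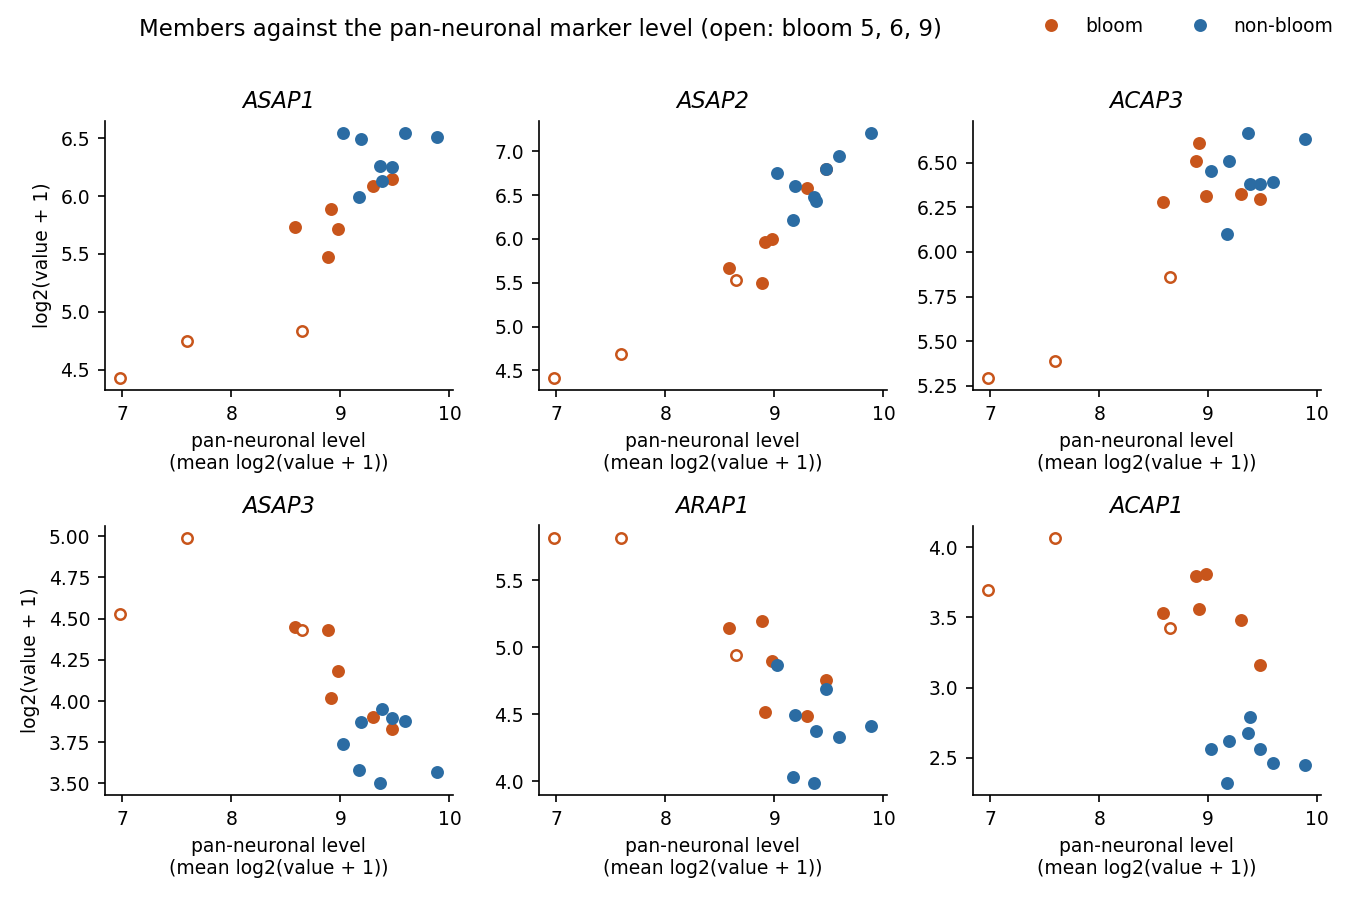
Log2(value + 1) of 6 members against the pan-neuronal marker level, 1 point for each dolphin, bloom in orange and non-bloom in blue; open circles are bloom 5, 6 and 9. In bloom cortex ASAP1 and ASAP2 go up with the neuronal level (r = 0.89 and 0.95) and ASAP3 and ARAP1 go down (r = -0.79 and -0.90).

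With the mitochondrial ratio, ASAP1 had r = -0.85 among bloom dolphins (exact permutation, adjusted p = 0.0211, and 0.0504 over all genes; Spearman coefficient -0.88, adjusted p = 0.0274), and r = -0.97 without bloom 8 and bloom 9 (adjusted p = 0.00714). ARAP1 had r = -0.86 among the 8 non-bloom dolphins (exact permutation, adjusted p = 0.0211, and 0.0493 over all genes; Spearman coefficient -0.90, adjusted p = 0.0274). Without non-bloom 1 and non-bloom 5, the farthest from the median, ARAP1 had r = -0.85 (exact permutation, adjusted p = 0.05) and did not pass. In bloom cortex the sign was the opposite, r = 0.63 (exact permutation, adjusted p = 0.183; Spearman coefficient 0.78, adjusted p = 0.0775) with all 9 dolphins and r = 0.90 (adjusted p = 0.0440) without bloom 8 and bloom 9, and the difference between the seasons was not tested. ARAP3 had r = -0.0091 with all 9 bloom dolphins (exact permutation, adjusted p = 0.982; Spearman coefficient 0.38, adjusted p = 0.489) and r = 0.91 without bloom 8 and bloom 9 (adjusted p = 0.0440). Over the bloom dolphins the mitochondrial ratio and the neuronal level went together with r = -0.60 (exact permutation p = 0.0869; Spearman coefficient -0.77, p = 0.0214). With the neuronal level as a covariate of season the log2 differences of ASAP1, ASAP2, ASAP3 and ARAP1 were -0.38, -0.28, 0.30 and 0.26 and none passed (adjusted p = 0.553, 0.636, 0.615 and 0.708, limma), in a fit that called 4 of the 13548 genes, or 0.0295%. With the mitochondrial ratio as the covariate they were -0.76, -0.87, 0.51 and 0.60 and all passed (adjusted p = 0.00458, 0.0151, 0.0201 and 0.0292, limma). That fit called 2518 of the 13548 genes.

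After removal of each season's mean, ACAP1 varied most like ASAP3 among the other members, with r = 0.69 over 17 dolphins (permutation within season, adjusted p = 0.0774 over 8 members; Spearman coefficient 0.56, adjusted p = 0.130). It had r = 0.60 with ARAP3 (permutation, adjusted p = 0.118; Spearman coefficient 0.66, adjusted p = 0.0607) and r = -0.60 with ASAP2 (adjusted p = 0.118; Spearman coefficient -0.49, adjusted p = 0.158). None of the 8 passed after adjustment, and these 3 had an unadjusted permutation p under 0.05. Without bloom 4 and bloom 6, the farthest from the ACAP1 median, the 3 values were r = 0.30, 0.52 and -0.24 (permutation, adjusted p = 0.484, 0.342 and 0.587).

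Over the whole table, the 5 genes whose season-centred values were most like those of ACAP1 among 12382 ranked were BCL3, LZTS2, PHRF1, PCCB and AMH, with r = 0.89, 0.85, 0.83, 0.83 and 0.82 over 17 dolphins. They were picked as the highest of many, so no p is given. BCL3 encodes a partner of NF-kappa-B, PCCB a subunit of propionyl-CoA carboxylase, and AMH the anti-Müllerian hormone. BCL3 had 5.98, 9.14 and 28.0 TMM-scaled CPM as lowest, median and highest in bloom libraries, against 4.95, 7.73 and 12.6 in non-bloom libraries. For BCL3 r was 0.90 within bloom and 0.85 within non-bloom cortex, and for PHRF1 it was 0.81 and 0.96. Of the 5 genes PCCB rose in bloom cortex (log2 difference 0.42, SE 0.13, adjusted p = 0.0471, limma). ASAP3 ranked 87, ARAP3 314 and ARAP1 649 in this order, and the other 5 members ranked between 7149 and 11936.

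Of the other genes of the Arf pathway, 8 of 67 tested passed, 4 higher and 4 lower in bloom cortex, beside 9.16% of all genes. Counts by other rules are read against their own shares of all genes. An unadjusted p below 0.05 by limma was found in 35.4%, 16.4% higher and 19.1% lower. DESeq2 called 23.4%, 14.4% higher and 9.04% lower, and edgeR called 8.63%, 6.07% higher and 2.55% lower. The Arf GTPases themselves had negative log2 differences in 4 of 4 tested genes, with a median of -0.68 beside -0.0034 for all genes, and none passed by limma (3 lower with unadjusted p below 0.05) or edgeR, while DESeq2 called 2 lower. ARF3, an abundant Arf of the Golgi in neurons, averaged 195 ± 105 TMM-scaled CPM in bloom and 322 ± 45.5 in non-bloom cortex (log2 difference -0.91, SE 0.29, adjusted p = 0.0507, limma), and ARF1 90.5 ± 33.3 and 133 ± 13.9 (log2 difference -0.65, SE 0.22, adjusted p = 0.0605). ARF6, the substrate of the ACAP proteins, and ARF2 were not analysed here.

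Of 13 exchange factors tested 3 fell and none rose, beside 4.69% lower among all genes, with a median log2 difference of -0.40. By edgeR 1 was lower and by DESeq2 3, beside 2.55% and 9.04% of all genes. With unadjusted p below 0.05 by limma 5 were lower, beside 19.1% of all genes. ARFGEF2, which activates Arfs at the trans-Golgi, averaged 31.6 ± 16.5 TMM-scaled CPM in bloom and 58.5 ± 14.8 in non-bloom cortex (log2 difference -0.99, SE 0.28, adjusted p = 0.0407, limma). PSD3, an Arf6 exchange factor of the brain, averaged 27.7 ± 10.5 in bloom and 49.9 ± 14.9 in non-bloom cortex, and IQSEC1, which acts on Arf6 at synapses, 91.4 ± 33.8 and 148 ± 37.3. Their log2 differences were -0.84 and -0.74 (SE 0.24 and 0.23, adjusted p = 0.0422 and 0.0480, limma).

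Of 13 other Arf GTPase-activating proteins GIT2 rose and none fell, with a list median of -0.058 (edgeR 1 higher, DESeq2 1 higher and 2 lower, and 1 higher and 4 lower with unadjusted p below 0.05). GIT2, a scaffold that joins Arf6 regulation to the PIX and PAK proteins, had 18.6, 20.8 and 26.2 TMM-scaled CPM as lowest, median and highest in bloom libraries, against 13.0, 15.6 and 18.3 in non-bloom libraries. GIT2 did not overlap between the seasons, as was found with bloom higher in 0.502% of all genes tested (log2 difference 0.40, SE 0.11, adjusted p = 0.0383, limma; edgeR adjusted p = 0.0355). The gap was narrow, 18.6 as the lowest bloom value against 18.3 as the highest non-bloom value.

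Of 18 effectors and recycling partners of Arf6, MICALL1 and PLD2 rose and none fell by limma, with a median of -0.18 (edgeR called the same 2, DESeq2 2 higher and 2 lower, and 3 were higher and 5 lower with unadjusted p below 0.05). MICALL1, which shapes tubular recycling endosomes, averaged 36.1 ± 8.09 TMM-scaled CPM in bloom and 21.4 ± 6.27 in non-bloom cortex (log2 difference 0.74, SE 0.17, adjusted p = 0.0296, limma). PLD2, a phospholipase D that Arf proteins stimulate, averaged 29.6 ± 19.7 in bloom and 9.26 ± 4.83 in non-bloom cortex (log2 difference 1.47, SE 0.41, adjusted p = 0.0406). INPPL1, a phosphoinositide phosphatase that binds ARAP3, averaged 81.1 ± 55.4 and 30.8 ± 14.6 (log2 difference 1.26, SE 0.36, adjusted p = 0.0431) and was the 1 of 13 ASAP and ARAP partners to pass, with a median of -0.13 (DESeq2 1 higher, and 1 higher and 2 lower with unadjusted p below 0.05).

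Of 6 cargo and coat genes of ACAP1 that were tested, CLTC fell and none rose, with a median of 0.060 (edgeR called none, DESeq2 1 lower). CLTC, the clathrin heavy chain, averaged 548 ± 203 TMM-scaled CPM in bloom and 866 ± 135 in non-bloom cortex (log2 difference -0.75, SE 0.22, adjusted p = 0.0470, limma; edgeR adjusted p = 0.0554). TFRC, the transferrin receptor, averaged 41.9 ± 27.2 and 71.9 ± 29.2 (log2 difference -1.11, SE 0.50, adjusted p = 0.122), and ITGB1, integrin beta 1, 142 ± 75.3 and 89.8 ± 27.4 (log2 difference 0.55, SE 0.27, adjusted p = 0.159). Each of the 8 calls was lost without bloom 2, 6 or 7 or non-bloom 1, 2, 6 or 8, with adjusted p up to 0.0941 over all 17 such fits. None of the 8 passed without bloom 5, 6 and 9 together, where MICALL1 was nearest (log2 difference 0.68, adjusted p = 0.0552, limma).

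**Figure D5:**
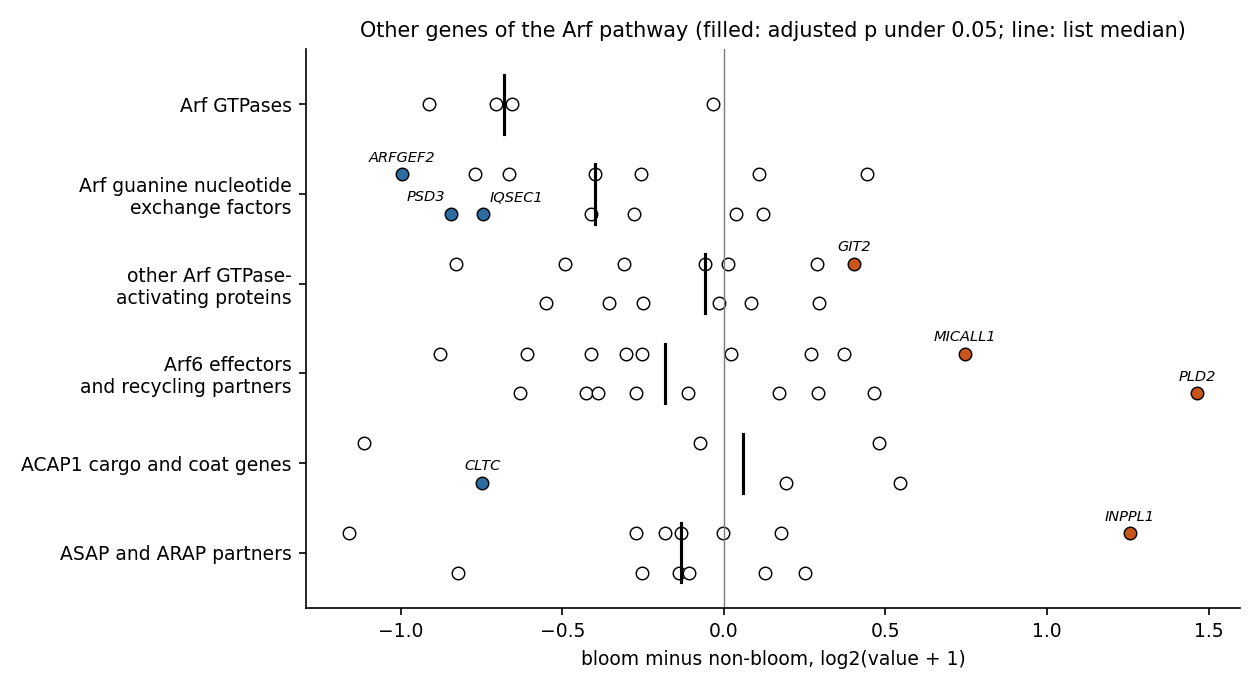
Bloom minus non-bloom difference on the log2(value + 1) scale of each tested gene in 6 lists of the Arf pathway; filled circles passed at an adjusted p under 0.05 (orange higher, blue lower, limma), open circles did not, and the black line is the list median. The exchange factors that passed and CLTC are lower in bloom cortex, and GIT2, MICALL1, PLD2 and INPPL1 are higher.

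Marker genes of other cells moved as well, and their part in these differences was not tested. Their counts are read against the shares of all genes tested. By limma 4.47% were higher and 4.69% lower in bloom cortex, by edgeR 6.07% and 2.55%, and by DESeq2 14.4% and 9.04%. With unadjusted p below 0.05 by limma 16.4% were higher and 19.1% lower. SYT1 was the 1 of 11 pan-neuronal markers that fell by limma, and all 11 had negative log2 differences (8 lower with unadjusted p below 0.05, beside 19.1% of all genes, edgeR 1 and DESeq2 4 lower). ERMN and MOG rose among 9 oligodendrocyte markers (6 higher with unadjusted p below 0.05, edgeR 1 and DESeq2 4 higher), whose summed value ran from 4336 to 19143 in bloom and from 1671 to 7980 in non-bloom libraries. None of 9 astrocyte markers passed by limma, 4 were higher with unadjusted p below 0.05, beside 16.4% of all genes, edgeR called 2 and DESeq2 5 higher, beside 6.07% and 14.4%, and their sum ran from 401 to 6862 in bloom and from 323 to 1838 in non-bloom libraries. None of 8 endothelial markers passed (1 higher with unadjusted p below 0.05, edgeR 1 and DESeq2 3 higher), with sums of 168 to 2785 in bloom and 283 to 881 in non-bloom libraries. Of 4 neutrophil markers tested S100A9 and S100A12 fell (4 lower with unadjusted p below 0.05, edgeR 3 and DESeq2 4 lower), with sums of 0.201 to 16.5 in bloom and 10.98 to 229 in non-bloom libraries. None of 6 microglia markers passed by limma (2 lower with unadjusted p below 0.05, edgeR 2 and DESeq2 4 lower), with sums of 4.90 to 32.1 in bloom and 4.33 to 263 in non-bloom libraries.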

How the data were processed

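Messenger RNA of dolphin cerebral cortex was sequenced in 17 libraries, 1 for each dolphin. Per the submitters' processing notes the authors used STAR 2.5.2a and Trim Galore 0.6.1. No source used here gives the counter, the annotation or the build. The deposited signal holds, for each library, a normalised value per gene. Dividing by what 1 read is worth gave whole reads for every nonzero value (100% within 0.01 of a whole number, largest deviation 0.000496), and the divisors equalled TMM-scaled library sizes recomputed here, so the authors' values are CPM with TMM scaling. Reads were recovered from them, and 3 reads, the floor for counting error, equal 0.158 to 1.71 in value.

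Genes were kept by filterByExpr (minimum count 10, minimum total 15), which left 13548, all 9 members among them. Season was tested on log2(value + 1) in all 17 libraries by limma-trend, without covariates, with a threshold of 0.05 on the Benjamini-Hochberg adjusted p. Groups were taken from the treatment label. edgeR and DESeq2 ran on the recovered reads and called 1169 and 3170 genes. Correlations used exact permutation over all pairings within a season, or 100000 permutations within season. The tests were tried on simulated data with known changes. The members, gene lists, named genes and settings were chosen with earlier results of these data known. The named genes are the members, the 5 most like ACAP1, its neighbours, and the pathway genes that passed or else the 2 with the smallest p, with a few others added after their values were seen. The subfamily ratios, the relations over all genes and the settings without bloom 5, 6 and 9 or with a covariate were chosen after seeing the data. Alternatives are given in the closing section. Versions were Python 3.11.15 with numpy 2.4.6, DESeq2 1.42.0, edgeR 4.0.16 and limma 3.58.1 in R 4.3.3.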

Additional observations from a re-analysis of the deposited data

Results flagged for a closer look

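Among 20 groups of values looked at (9 members and the mitochondrial share, in each season), 2 held a library that stood apart from the rest of its group by Dixon's criterion, and chance alone flags about 1 in 20 groups. ASAP3 in bloom 6 was 30.8 TMM-scaled CPM, and the next bloom library was at 22.1, a gap of 0.495 of the group's range against a critical value of 0.493. Without bloom 6 the ASAP3 log2 difference was 0.47 (adjusted p = 0.0692, limma). The mitochondrial share of non-bloom 1 was 22.1% of reads, and the next non-bloom library was at 14.7%.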

How the results depend on the processing

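The ACAP1 difference lay between 0.92 and 1.22 on the log2 scale over all 27 alternatives, 1.00 to 1.11 with 1 library left out. Of the 8 relatives 4 passed, and 0 to 4 did so with 1 library left out. The count was 3 by edgeR, 4 by DESeq2, 1 with no filter on low values and 1 without bloom 5, 6 and 9. It was 4 with the mitochondrial ratio as a covariate and 0 with the pan-neuronal level as a covariate. In the fit with the pan-neuronal level ACAP3 and ARAP3, which had not passed, turned to 0.047 and -0.079. Of the pathway genes 8 passed, and 0 to 17 did so with 1 library left out, 5 by edgeR, 14 by DESeq2, 2 with no filter, 0 without bloom 5, 6 and 9, 17 with the mitochondrial ratio and 0 with the pan-neuronal level as a covariate. The causes were not tested, and the number of genes passing over the whole table moved as well, from 4 with the pan-neuronal level to 3170 by DESeq2. Of the 36 within-season relations 7 passed, and 4 when adjusted over all genes tested. All 7 were in bloom cortex except that of ARAP1 with the mitochondrial ratio in non-bloom cortex. Within bloom without bloom 5, 6 and 9, 1 of 18 passed, that of ARAP3 with the mitochondrial ratio (r = 0.99, exact permutation, adjusted p = 0.025 over the 18, n = 6). That relation had not passed over all 9 bloom dolphins. With a pseudocount of 0.1 the count over the 36 was 7. It was 6 with the 2 farthest libraries left out, among them ASAP2, ARAP1 and ARAP3 with the mitochondrial ratio in bloom, which had not passed over all 9 dolphins. No paired analysis was possible because each library is another dolphin and the labels give no numbers shared between the seasons. Depth limits bloom 9 most, with 17 reads of ACAP1 and 6 of ARAP3.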
